A study of Mus musculus with 36 samples.

Results

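Complex I is the first enzyme of the mitochondrial respiratory chain, and the genes described here are the nuclear genes of that complex. The set holds each protein-coding gene of the deposited table whose mouse symbol, matched through its Ensembl identifier, begins with Nduf. It has 46 members among 49671 genes. Of these, 10 belong to the N module, 6 to the Q module, 9 to the proximal and 11 to the distal part of the membrane arm, and 8 are assembly factors. The other 2, Ndufa4 and Ndufa4l2, carry the name but were later assigned outside the complex. Processed pseudogenes with an Nduf symbol (4 genes) were left out, and Ndufb1 is not analysed here.

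Complex I takes electrons from NADH at its N module, passes them along iron-sulphur clusters to ubiquinone in the Q module, and couples this to proton pumping by the membrane arm. Its membrane core is encoded by mitochondrial DNA and the rest by nuclear genes, so the complex is assembled from products of both genomes with the help of assembly factors that leave the finished enzyme. Naive mouse embryonic stem cells respire, whereas primed epiblast cells rely more on glycolysis.

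The 36 libraries were bulk RNA-seq of mouse stem cells from 3 lines, named Bod1L, Setd1a and Mll2 after the targeted genes (Mll2 is the protein of Kmt2b). Setd1a and Kmt2b encode methyltransferases for lysine on histone H3, and Bod1l encodes a chromatin protein. Each line was grown as wild-type (WT) and knockout (KO) cells in 3 conditions with 2 replicates labelled biological, which gives 18 groups. The conditions were 2i (LIF with the inhibitors PD0325901 and CT99021, labelled naive embryonic stem cells), FCS (LIF and serum) and EpiSC (Activin A and FGF2, labelled epiblast stem cells). Tamoxifen stands in the titles of the KO libraries and not in those of the WT libraries, so the drug and the genotype cannot be told apart. Each genotype of a line comes from 1 conditional line and not from several clones, so the p-values reflect how these cultures varied and nothing wider.

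Gene counts ran from 24.5 M to 40.6 M per library, with a median of 32.6 M. Counts over the whole targeted gene check the labels only in part, since the deleted part was not given. Bod1l stood at 21.5% of WT in its KO libraries without overlap, whereas Setd1a (76.6%) and Kmt2b (82.1%) overlapped between KO and WT. Markers followed the medium labels only in part. Summed naive markers (7 genes) were at 2289 to 3543 CPM (counts relative to the scaled library total) in 2i, 769 to 2641 in FCS and 12.9 to 521 in EpiSC, and no Setd1a EpiSC library was below 333. Summed primed markers (6 genes) were at 85.1 to 280, 249 to 1620 and 145 to 1045, so their sum was no higher in EpiSC (median 535) than in FCS (median 661). By gene, the medians of Dnmt3b (317 against 482 CPM) and Otx2 (32.6 against 39.8) were lower in EpiSC than in FCS. Those of Fgf5 (60.8 against 6.39), Zic2 (91.8 against 23.7), Lef1 (14.6 against 10.8) and Pou3f1 (44.4 against 43.2) were higher. Pou5f1 and Sox2, shared by naive and primed cells, summed to medians of 920, 1057 and 428 CPM, and Sox2 alone was at 366, 411 and 92.6. Fibroblast or feeder markers (5 genes) summed to 1.88 to 11.8 CPM in 2i and 14.3 to 250 in FCS, but 82.3 to 6570 in EpiSC. All 12 EpiSC libraries and Setd1a KO 2i replicate 1 carry later library numbers than the other 23, so medium, cell type and library series cannot be told apart for EpiSC.

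Some libraries stood apart in the members before any comparison. In 2i Mll2 WT replicate 2 the members' median deviation from their mean over all libraries was 1.21 on the log2 scale, against -0.49 to 0.39 in the other 35 libraries, and their summed level was 4857 CPM against 1561 to 2820. In the same library 238 other genes shorter than 1000 bases deviated by 1.10, and 1874 genes of at least 8000 bases by -0.51. Members are short: their median exon length was 1438 bases, against 4364 for protein-coding genes of at least 5 CPM. Setd1a KO libraries showed the same link. FCS Setd1a KO replicate 1 was at 0.27 for the members and 0.41 for the other short genes, while the other 5 Setd1a KO libraries were at -0.28 to -0.49 and -0.11 to -0.44. How much of a difference in the members goes with this length shift was not tested beyond a fit with a length offset, whose counts are given for each mean of 3 media or lines below.

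**Figure D1:**
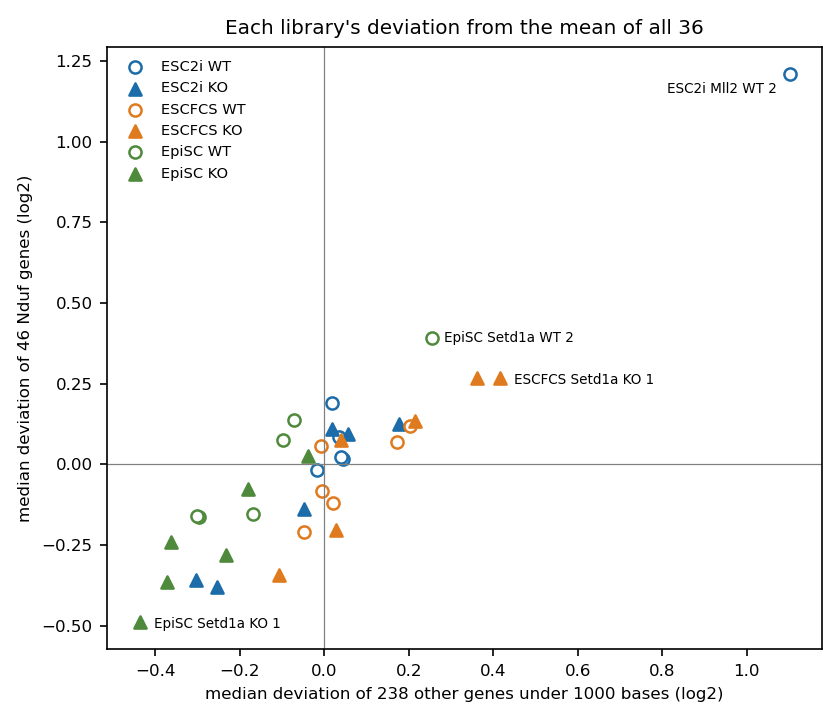
Median log2 deviation of the 46 Nduf genes (vertical axis) against that of 238 other genes under 1000 bases (horizontal axis), 1 point per library, deviations taken from the mean of 36 libraries. Open circles are WT and filled triangles KO, coloured by medium. The library 2i Mll2 WT 2 lies at 1.10 and 1.21, away from the other 35.

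Promoter sequences are shown for 5 of the 10 members that were lower in Setd1a KO cells (below), to show the sequence around their start sites. They come from RefSeq on GRCm38.p6 and run from 250 bases before to 50 bases after the gene's start, in the direction of transcription. Capitals mark matches, on either strand, to motifs named for regulators of respiratory genes: the NRF1 motif (given by name only), CCGGAAG for the ETS family (which includes GABPA) and AAGATGGC for YY1. Ndufaf8 (chr11:120098684-120098983, plus strand) holds ETS and YY1 matches, Ndufs6 (chr13:73328433-73328732, minus strand) NRF1 and YY1 matches, Ndufc1 (chr3:51408906-51409205, minus strand) a YY1 match, Ndufs3 (chr2:90904672-90904971, minus strand) 2 ETS matches, and Ndufv3 (chr17:31519865-31520164, plus strand) none.
Ndufaf8: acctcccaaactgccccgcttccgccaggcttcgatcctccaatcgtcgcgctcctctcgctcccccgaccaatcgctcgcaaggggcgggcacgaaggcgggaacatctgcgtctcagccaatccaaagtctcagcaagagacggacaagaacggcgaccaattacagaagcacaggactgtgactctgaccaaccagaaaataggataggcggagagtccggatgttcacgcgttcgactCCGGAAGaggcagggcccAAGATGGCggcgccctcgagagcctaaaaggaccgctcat
Ndufs6: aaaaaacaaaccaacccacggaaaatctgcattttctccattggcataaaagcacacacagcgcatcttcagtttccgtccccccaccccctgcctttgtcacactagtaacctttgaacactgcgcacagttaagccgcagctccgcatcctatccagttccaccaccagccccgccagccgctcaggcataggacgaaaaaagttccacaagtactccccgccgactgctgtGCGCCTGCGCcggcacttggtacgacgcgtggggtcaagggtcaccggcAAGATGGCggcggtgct
Ndufc1: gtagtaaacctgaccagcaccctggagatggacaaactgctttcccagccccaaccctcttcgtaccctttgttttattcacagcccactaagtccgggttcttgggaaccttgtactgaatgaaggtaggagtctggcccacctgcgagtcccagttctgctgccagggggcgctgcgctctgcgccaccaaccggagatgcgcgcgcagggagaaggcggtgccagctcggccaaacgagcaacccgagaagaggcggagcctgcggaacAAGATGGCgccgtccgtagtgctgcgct
Ndufs3: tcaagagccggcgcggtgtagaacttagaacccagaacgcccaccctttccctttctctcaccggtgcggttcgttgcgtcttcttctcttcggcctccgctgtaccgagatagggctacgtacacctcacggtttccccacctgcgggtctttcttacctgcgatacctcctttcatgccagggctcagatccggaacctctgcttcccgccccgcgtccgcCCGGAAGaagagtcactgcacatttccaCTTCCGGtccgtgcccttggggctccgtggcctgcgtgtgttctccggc
Ndufv3: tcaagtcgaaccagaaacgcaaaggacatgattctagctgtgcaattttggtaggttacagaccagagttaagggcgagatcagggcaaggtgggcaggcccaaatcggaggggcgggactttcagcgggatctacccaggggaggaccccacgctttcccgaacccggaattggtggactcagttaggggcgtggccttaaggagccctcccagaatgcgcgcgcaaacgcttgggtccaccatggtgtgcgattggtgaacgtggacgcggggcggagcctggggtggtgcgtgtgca

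A promoter was matched for 40 of the 46 members, and 21 of these held at least 1 of the motifs. NRF1 letters were in 22.5% of the member promoters, against 6.86% of 16455 promoters of protein-coding genes in the table. YY1 letters were in 20.0% against 3.29%, and ETS letters in 15.0% against 12.3%. Among the 8 matched members that were lower in Setd1a KO cells, 4 held a motif. All 4 are among the sequences shown above, so those hold matches more often than the 8 do. These matches describe letters and not bound sites.

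Start sites of many members face another gene. For 21 of the 46 the nearest start on the opposite strand lay within 1000 bases, an arrangement found in 10.8% of 21811 protein-coding genes. The Ndufv3 start lay 135 bases from that of Wdr4, Ndufaf8 197 bases from Tepsin, Ndufb3 61 bases from Fam126b and Ndufb9 18 bases from Tatdn1.

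Levels were compared between genes per length, as RPKM (the CPM divided by the table's exon length in kilobases). Over 36 libraries Ndufa4, now counted with cytochrome oxidase, was highest at 104.5 ± 32.7 (SD, n = 36), with a range of 63.1 to 218. Ndufb9 (102 ± 35.1), a distal-arm subunit, and Ndufb6 (99.2 ± 61.4) followed, then Ndufa6 (71.7 ± 31.8), an N-module accessory subunit, and Ndufa1 (71.5 ± 26.8), an X-linked proximal-arm subunit. These neighbours differ by less than their SD. The highest Ndufb6 value, 413 RPKM, came from FCS Setd1a KO replicate 1, where the other replicate of that group had 56.1 CPM against 272.

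The lowest member was Ndufa4l2, a hypoxia-induced relative of Ndufa4, at 1.29 ± 1.33 RPKM (0.171 to 5.85). Next came Ndufb2 at 2.10 ± 0.702, Ndufab1 (the mitochondrial acyl carrier protein) at 5.34 ± 1.37, Ndufb4 at 5.50 ± 2.84 and Ndufaf3 at 5.94 ± 2.31. For Ndufb2 and Ndufab1 the table gives lengths of 5628 and 6883 bases, and a length that includes rarely used exons lowers the RPKM. Near-identical copies also bear on some levels: 13 members share at least 100 bases at 95% identity or more with another gene, so their counts are uncertain. Among them are Ndufab1, Ndufb2, Ndufb4 and Ndufs5. The left-out pseudogene Ndufb4c (390 shared bases, 100% identity) held 43142 counts in total, against 7552 for Ndufb4. Ndufab1-ps (469 bases, 99.4%) held 47533, against 42625 for Ndufab1. The left-out Ndufs6b (10420 against 48503 for Ndufs6) and Ndufa11b (2399 against 53879 for Ndufa11) held fewer. How far such copies lower the levels and ranks of Ndufb4 and Ndufab1 was not tested. Ndufs3, Ndufs6, Ndufb3, Ndufb9 and Ndufc1, described below as lower in Setd1a KO cells, are among them too. For Ndufs3 the longest shared stretch was 792 bases at 98.6% identity.

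By role, median levels were 41.8 RPKM for the N module (Ndufa12 at 13.3 to Ndufa6 at 71.7), 38.1 for the proximal arm (Ndufc1 at 17.3 to Ndufa1 at 71.5), 30.9 for the Q module (Ndufs3 lowest at 18.3) and 15.1 for the distal arm. Assembly factors had the lowest median, 9.70 RPKM. Among them Ndufaf2, a late-acting factor, was highest at 26.0. Ndufaf1, which helps to build the membrane arm, was at 14.1 and Ndufaf6 at 12.3. Ndufaf7, a mitochondrial methyltransferase, was at 9.71, and the partners Ndufaf8 and Ndufaf5, which act on Ndufs7, were at 9.69 and 6.63. The early-acting pair Ndufaf4 and Ndufaf3 were at 9.36 and 5.94. All 46 members passed the filter on low counts.

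**Figure D2:**
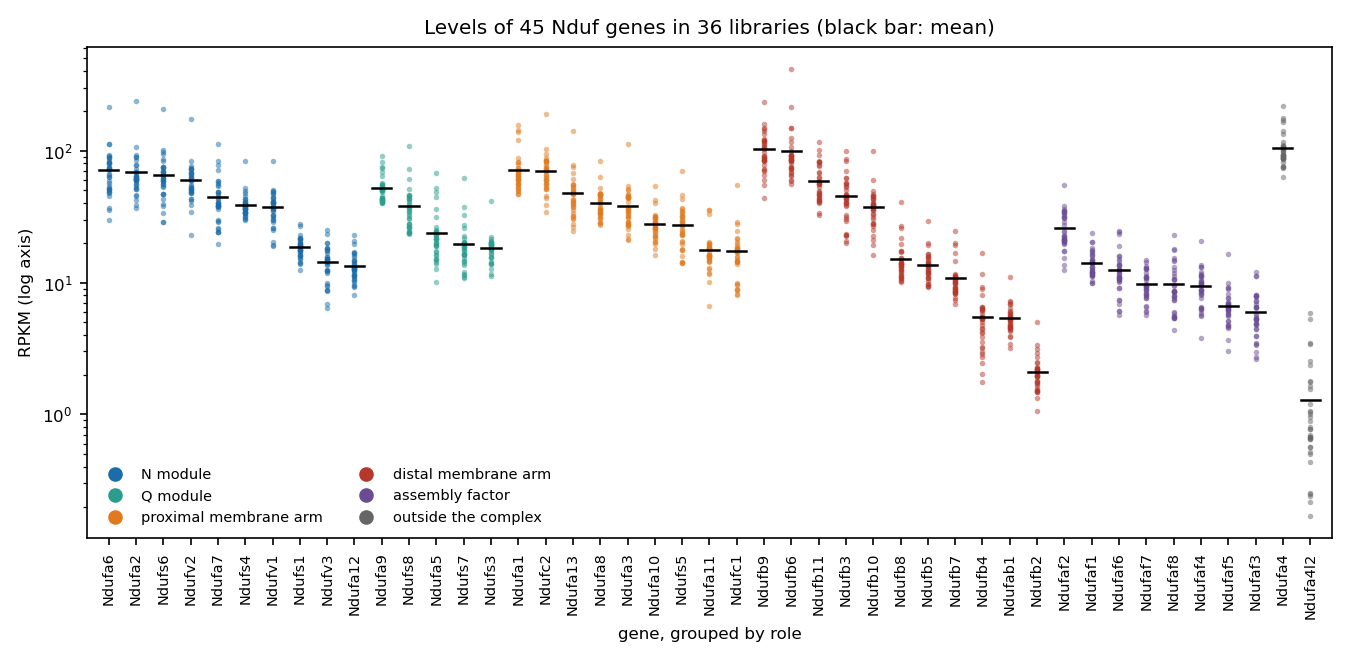
RPKM (log axis) of 45 of the 46 Nduf genes in the 36 libraries, 1 dot per library and a black bar for the mean, grouped and coloured by role. Means run from 1.29 for Ndufa4l2 to 104.5 for Ndufa4, and the assembly factors lie lower than most subunits.

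Setd1a KO cells had lower levels of 10 members in the mean of the 3 media, and no member was higher. Among them Ndufv3, Ndufv1 and Ndufs6 of the N module, Ndufs3 of the Q module, Ndufa10 and Ndufc1 of the proximal arm, Ndufb3 and Ndufb9 of the distal arm and the assembly factor Ndufaf8 fell, to 43.1% to 70.9% of WT. Calls were made with edgeR's quasi-likelihood test at a Benjamini-Hochberg adjusted p under 0.05 over 23501 genes. The 10 are 21.7% of the members, and of all genes tested 5.57% were lower and 3.29% higher in this comparison. The members' median log2 fold change was -0.32 (34 of 46 below 0) and that of all genes 0.07. With the replicate number as a block (KO and WT of the same number paired), 20 members (43.5%) were lower and none higher, against 11.7% of all genes lower. With a length offset added to the block (chosen after seeing the data) 16 were lower and 6 higher (Ndufa1, Ndufa4, Ndufa5, Ndufa9, Ndufb6 and Ndufs4), against 29.2% of all genes in either direction. Ndufs3, Ndufs6, Ndufb3, Ndufb9 and Ndufc1 share sequence with another gene (above), so their counts are uncertain. In these bulk samples fewer cells of a type and less RNA per cell cannot be told apart.

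A fit with a length offset (an added alternative, chosen after seeing the data) gave 8 members lower and 2 higher, against 9.63% of all genes in either direction. It moved the median of all genes to 0.17 and that of the members to -0.07, and 8 of the 10 calls were kept. Ndufa10 (-0.41, adjusted p = 0.0959 with edgeR) was among those lost, and Ndufa1 (0.70, adjusted p = 0.0216) and Ndufa4 (0.52, adjusted p = 0.0171) were higher. Without FCS Setd1a KO replicate 1 the fit with no length offset called 16 members, against 7.35% of all genes. It called 6 without EpiSC KO replicate 1, 2i KO replicate 2 or FCS KO replicate 2 of this line, against 5.42%, 5.59% and 5.13% of all genes. Without 2i Mll2 WT replicate 2, 14 members were lower (9.43% of all genes in either direction).

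In the N module, Ndufv3 is an accessory subunit (ENSMUSG00000024038, chromosome 17, 31520115 to 31531326 on GRCm38). In KO libraries Ndufv3 was at 21.4 and 22.0 CPM (2i), 23.3 and 21.7 (FCS), and 16.1 and 17.1 (EpiSC). The WT libraries stood at 35.4 and 37.7, 36.2 and 35.9, and 29.6 and 45.7. Every KO library was below every WT library. The log2 fold change was -0.87 ± 0.142 (SE, edgeR adjusted p = 2.15e-04).

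Ndufv1 binds FMN and is the subunit that oxidises NADH (chromosome 19, 4007497 to 4012806). It was at 73.0 and 64.8 CPM (2i), 93.1 and 63.0 (FCS), and 51.2 and 48.3 (EpiSC) in KO libraries, against 125 and 127, 112 and 111, and 91.4 and 102 in WT. Only FCS KO replicate 1 reached into the WT range. The fold change was -0.78 ± 0.147 (log2, SE, edgeR adjusted p = 0.00107). Ndufs6, a zinc-binding accessory subunit (chromosome 13, 73319874 to 73328542), was at 25.1 ± 9.83 CPM in KO and 43.2 ± 15.0 in WT (SD, n = 6), lower in 5 of 6 same-numbered pairs, with overlapping groups and an edgeR adjusted p of 0.0204.

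Ndufs3 is a core subunit of the Q module (chromosome 2, 90894634 to 90904827). It was at 24.5 to 34.0 CPM in the 6 KO libraries and 38.0 to 46.7 in the 6 WT libraries, without overlap. The log2 fold change was -0.55 ± 0.143 (SE, edgeR adjusted p = 0.0169).

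Of the membrane arm, Ndufb3 (chromosome 1, 58586384 to 58595964) was at 17.2 and 15.1 CPM (2i), 29.5 and 17.4 (FCS), and 15.6 and 17.4 (EpiSC) in KO libraries. In WT it was at 33.9 and 32.7, 34.4 and 43.0, and 31.4 and 43.0, above every KO library. The fold change was -0.98 ± 0.194 (log2, SE, edgeR adjusted p = 0.0018). Ndufb9, a protein of the LYR family (chromosome 15, 58933810 to 58939489), was at 42.7 ± 12.0 CPM in KO and 74.9 ± 12.9 in WT (SD, n = 6; log2 -0.84, edgeR adjusted p = 0.00144). Ndufc1, a small membrane subunit (chromosome 3, 51404677 to 51408988), was at 14.5 ± 3.14 against 26.7 ± 3.57 (log2 -0.88, edgeR adjusted p = 0.0051), without overlap. Ndufa10 (chromosome 1, 92439010 to 92473860), a large accessory subunit, was at 68.3 ± 12.2 against 96.3 ± 7.19 CPM, and its edgeR adjusted p of 0.0476 was the closest to the threshold.

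Among the assembly factors Ndufaf8 (chromosome 11, 120098928 to 120100705) had the lowest KO level relative to WT of the 10, at 43.1%. KO libraries were at 4.56 and 4.67 CPM (2i), 9.35 and 4.52 (FCS), and 3.64 and 4.98 (EpiSC). WT libraries were at 12.3 and 12.2, 10.3 and 15.1, and 10.9 and 12.7, again without overlap (log2 -1.24 ± 0.256, edgeR adjusted p = 0.00263). The other 7 factors did not pass the test. Their log2 differences were -0.60 for Ndufaf3 (edgeR adjusted p = 0.106), -0.58 for Ndufaf6 (adjusted p = 0.227), -0.20 for Ndufaf1, -0.17 for Ndufaf5, -0.15 for Ndufaf7, -0.01 for Ndufaf2 and 0.05 for Ndufaf4. With the replicate block Ndufaf3 (adjusted p = 0.00547) and Ndufaf6 (adjusted p = 0.0102) passed as well.

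**Figure D3:**
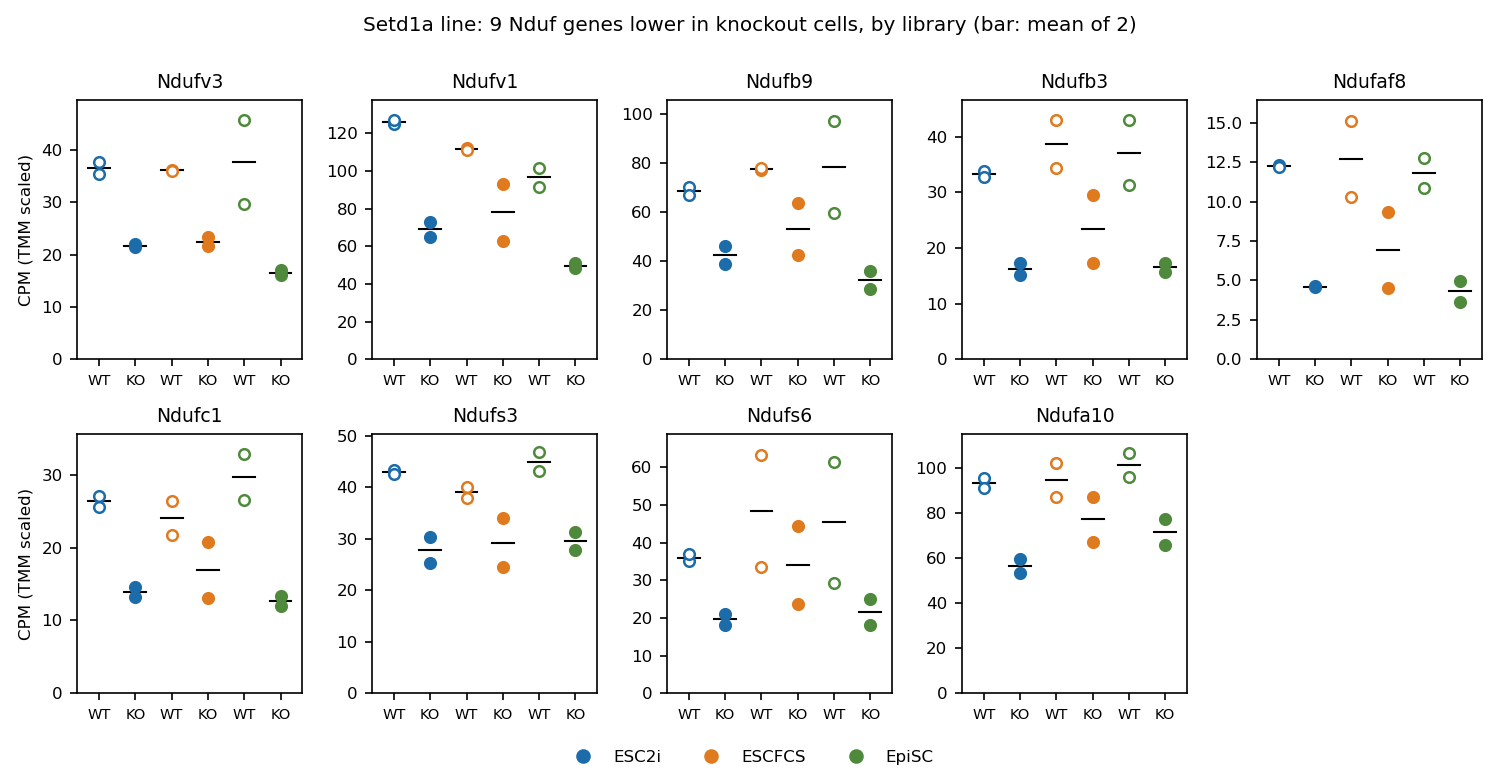
CPM of 9 of the 10 Nduf genes called lower in Setd1a KO cells, by medium and genotype, 1 point per library (open WT, filled KO) and a bar for the mean of 2. Ndufv3, Ndufb3, Ndufaf8, Ndufc1 and Ndufs3 do not overlap between genotypes, and FCS KO replicate 1 is above FCS KO replicate 2 in every panel.

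Of the 46 members, 6 (13.0%) had every Setd1a KO library below every WT library, against 2.64% of all genes, and 12 were lower and 1 (Ndufa4) higher in all 6 same-numbered pairs, against 10.3% and 12.4% of all genes. Calls by role were 3 of 10 in the N module (median log2 -0.49), 2 of 6 in the Q module (-0.53), 2 of 9 in the proximal arm (-0.30), 2 of 11 in the distal arm (-0.19), 1 of 8 assembly factors (-0.19) and 0 of 2 outside the complex. The lowest difference belonged to Ndufa4l2 (-1.32 ± 0.569, edgeR adjusted p = 0.160, or 0.00342 with the replicate block) at 0.654 CPM in KO and 1.39 in WT. The highest belonged to Ndufa1 (0.45 ± 0.227, edgeR adjusted p = 0.239). Ndufa4 was at 0.27 and Ndufb6 at 0.43, neither past the test.

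In single media the Setd1a contrast called few members. In EpiSC medium Ndufv3 (-1.18 ± 0.247, edgeR adjusted p = 0.0112) and Ndufb9 (-1.29 ± 0.284, edgeR adjusted p = 0.0169) were lower, 2 of 46 against 1.40% of all genes, with a member median of -0.63. With the replicate block 13 members were lower there, against 5.67% of all genes. EpiSC Setd1a WT replicate 2 held the highest values for both genes, and without it they were at -0.84 (adjusted p = 0.322) and -0.90 (adjusted p = 0.398), with 0.501% of all genes called. Without KO replicate 1 or 2 no member was called (0.414% and 1.66% of all genes), without WT replicate 1 there were 4 calls (1.59%), and without 2i Mll2 WT replicate 2 there were 5, against 1.79% of all genes. In 2i no member passed, against 1.69% of all genes (median -0.36, 14 with an unadjusted p under 0.05, 0 with DESeq2). A fit of only the compared groups did call members in 2i, beside a large share of all genes (closing section). With the replicate block 6 were lower there, against 6.40% of all genes, and without 2i Mll2 WT replicate 2 Ndufv1 alone was lower, against 1.84% of all genes. In FCS none passed, against 0.762% of all genes (median 0.01, 4 with an unadjusted p under 0.05, 0 with the block and 0 with DESeq2). That FCS median joins KO replicates that went opposite ways. The members' median deviation was 0.27 in KO replicate 1 and -0.34 in KO replicate 2, against -0.12 and 0.12 in WT. The length offset left the 2 calls in EpiSC and 0 in 2i and FCS, against 1.40%, 1.46% and 0.791% of all genes. With the block added to the offset, members were called in all 3 media, FCS included. Those counts stand in the closing section without a share of all genes, so they are no result about the members. A test of whether the knockout effect differed between media called 0 members in each of the 3 lines, against 0%, 0% and 0.00426% of all genes in the Setd1a, Bod1L and Mll2 lines.

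Other measures differed between the Setd1a genotypes too. Fibroblast or feeder markers reached 3915 CPM in KO and 1066 in WT libraries, both in EpiSC medium, and their part in the EpiSC result was not tested. In 2i, where these markers summed to at most 11.8 CPM in any library, the members' median was -0.36. No member was called there, against 1.69% of all genes. In FCS, where they summed to 14.3 to 250 CPM, the members' median did not fall, but the KO replicates went opposite ways (above). No member was called there either, against 0.762% of all genes. The part of these markers in the 2i and FCS values was not tested. Of the 6 KO libraries, only 2i replicate 1 differs from its WT partner in library series, and without it 8 members were called, against 5.40% of all genes.

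**Figure D4:**
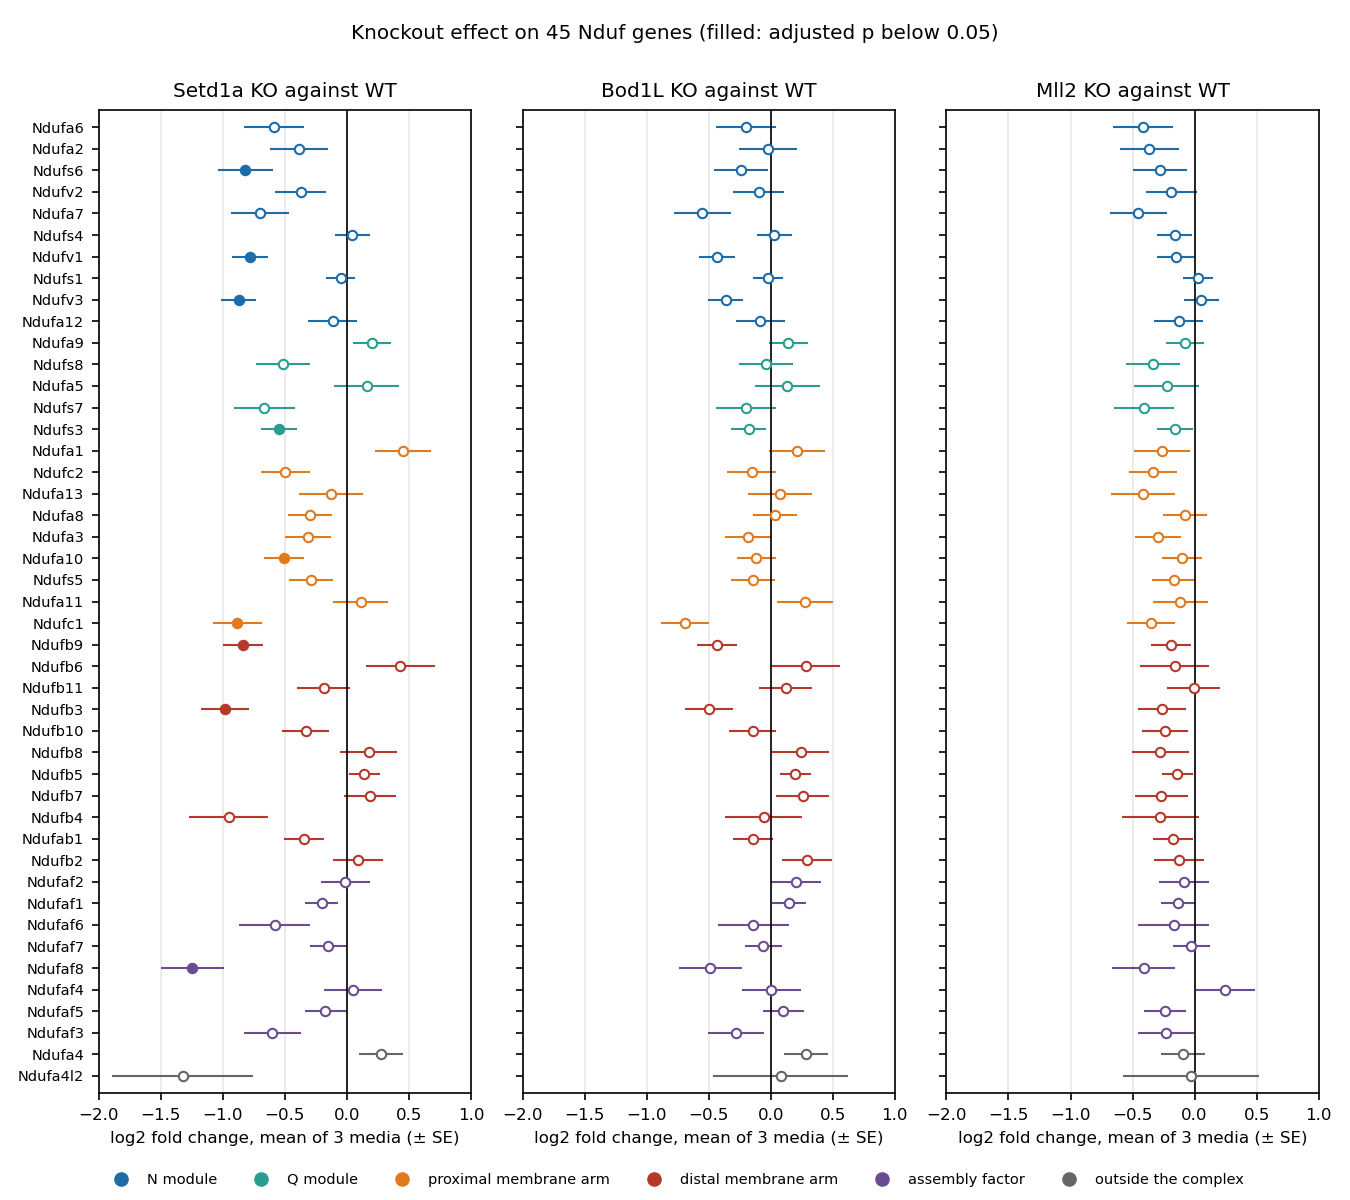
Log2 fold change (KO against WT, mean of 3 media, bars ± SE) of 45 of the 46 Nduf genes in the 3 lines, grouped by role. Filled points have an adjusted p below 0.05: 9 in the Setd1a line, all below 0, and 0 in the Bod1L and Mll2 lines.

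In Bod1L KO cells no member passed the edgeR test in the mean of 3 media, against 1.92% of all genes lower and 0.102% higher. The members' median was -0.06, and 6 had an unadjusted p under 0.05. Ndufc1 was closest. Its KO libraries were at 23.4 and 14.3 CPM (2i), 12.3 and 21.5 (FCS), and 21.5 and 14.8 (EpiSC), against 36.7 and 27.5, 21.6 and 29.1, and 31.8 and 27.5 in WT. It was lower in all 6 same-numbered pairs, with a slight overlap (-0.69 ± 0.195, edgeR adjusted p = 0.0790), and it passed with the block (adjusted p = 0.0129) and with DESeq2 (adjusted p = 0.0272).

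The block also called Ndufv1 (-0.43 without the block, adjusted p = 0.0341 with it) and Ndufv3 (-0.36, adjusted p = 0.0470 with it), which makes 3 members lower against 4.06% of all genes. Ndufv3 was at 30.8 ± 5.38 CPM in Bod1L KO and 39.8 ± 5.51 in WT (SD, n = 6), overlapping, and its edgeR adjusted p without the block was 0.347. The highest difference was that of Ndufb2 (0.29 ± 0.200, edgeR adjusted p = 0.891). No member was called in 2i, FCS or EpiSC alone, against 0.374%, 0.191% and 0.438% of all genes, and 5 were lower and 2 (Ndufb2 and Ndufa4) higher in all 6 pairs, against 5.83% and 5.97% of all genes. The length offset called Ndufc1 and Ndufb9 lower, against 2.04% of all genes. Leaving out 1 library gave 0 to 2 calls, with 2 when 2i Mll2 WT replicate 2 was left out (2.04% of all genes), and 1 without 2i KO replicate 1 (1.92%) or FCS KO replicate 2 (1.71%) of the Bod1L line.

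Mll2 KO cells had 0 members called in the mean of 3 media, against 0.694% of all genes (0.634% lower), and no member had an unadjusted p under 0.05. DESeq2 called 0 too, and so did the length offset (0.766% of all genes). Log2 differences were below 0 for 43 of 46 members, with a median of -0.17 and extremes of -0.45 for Ndufa7 (edgeR adjusted p = 0.645), an accessory subunit of the N module, and 0.25 for Ndufaf4 (edgeR adjusted p = 0.893). Without 2i Mll2 WT replicate 2 only 15 of 46 were below 0, the median was 0.04, Ndufa7 was at -0.12 and 0 members were called, against 0.401% of all genes. In 2i the median was -0.62 with 17 unadjusted p-values under 0.05 and no calls, against 0.464% of all genes. There Ndufa7 was at 64.7 and 64.2 CPM in KO and at 63.3 and 191 in WT libraries. Without 2i Mll2 WT replicate 2 the 2i median was 0.11, and without WT replicate 1 there were 15 calls, all lower, against 5.69% of all genes. FCS and EpiSC medians were 0.03 and -0.02, with 0 calls and 0% of all genes in each.

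The effects of the lines were then compared. Ndufv3 differed between the Mll2 and the Setd1a line, by 0.93 ± 0.199 (log2, edgeR adjusted p = 0.00890). It was the only member called, against 2.00% of all genes higher in this test. Mll2 KO libraries had 45.5 and 38.7 CPM (2i), 49.5 and 61.8 (FCS), and 31.2 and 37.0 (EpiSC), and WT libraries 41.9 and 58.1, 37.4 and 49.4, and 30.5 and 35.6, so the groups overlapped. With the block 6 members differed, against 6.36% of all genes: Ndufv3, Ndufv1, Ndufb9, Ndufb3, Ndufaf8 and Ndufa4l2. Without 2i Mll2 WT replicate 2 there were 5, against 2.70% of all genes, and the length offset gave 2 (Ndufv3 and Ndufb9), against 2.92%. Between the Bod1L and the Setd1a effect 0 members differed (2 with an unadjusted p under 0.05, 0 with DESeq2, 0 with the block and 0 with the length offset), against 0.00426% of all genes, so a difference between these lines was not detected.

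Between media, WT cells in FCS had 8 members lower than in 2i and none higher, against 14.5% of all genes lower. The lower members' share was near that of all genes. Ndufb5 of the distal arm (-0.63 ± 0.127, edgeR adjusted p = 5.92e-04) was at 46.7 to 59.4 CPM in FCS and 67.6 to 147 in 2i, without overlap. Ndufv2, an iron-sulphur subunit of the N module (-0.80 ± 0.206, edgeR adjusted p = 0.00560), was at 94.3 to 107 and 131 to 343 CPM, also without overlap. Ndufa6 (-0.90), Ndufs8 (-0.80), which carries iron-sulphur clusters in the Q module, Ndufa13 (-0.79), Ndufa3 (-0.62), Ndufaf5 (-0.59) and Ndufc1 (-0.54) were the others, and Ndufc1 missed the threshold with the block (adjusted p = 0.0563).

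These medium differences rested largely on 2i Mll2 WT replicate 2, the library that stands apart. Without it only Ndufb5 (-0.52, edgeR adjusted p = 0.00314) and Ndufv2 (-0.54, edgeR adjusted p = 0.0441) were lower in FCS, against 23.8% of all genes in either direction, and the member median went from -0.30 to -0.05. Without 2i Mll2 WT replicate 1 there were 19 calls (27.0% of all genes), and 5 without replicate 1 of FCS Mll2 WT (22.8%) or of FCS Setd1a WT (22.4%). The length offset kept the 8 calls, against 28.4% of all genes.

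EpiSC cells had 13 members lower than 2i cells, against 27.4% of all genes lower, so the members' share was near that of all genes. The largest differences were those of Ndufa5 in the Q module (-0.98), Ndufb10 (-0.74), Ndufaf2 (-0.72), Ndufv2 (-0.69), Ndufa3 (-0.68), Ndufaf5 (-0.67), Ndufs8 (-0.58), Ndufv1 (-0.57), Ndufb5 (-0.52) and Ndufa4 (-0.51). Ndufa5 was at 13.0 to 19.7 CPM in EpiSC and 16.8 to 69.6 in 2i, and the groups overlapped. Without 2i Mll2 WT replicate 2 the calls became 8 lower and 3 higher (Ndufab1, Ndufaf3 and Ndufaf6), against 46.2% of all genes, with the median going from -0.28 to -0.02, and the length offset gave 13 lower and 7 higher, against 52.1% of all genes. There were 20 calls without 2i Mll2 WT replicate 1, against 50.2% of all genes.

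**Figure D5:**
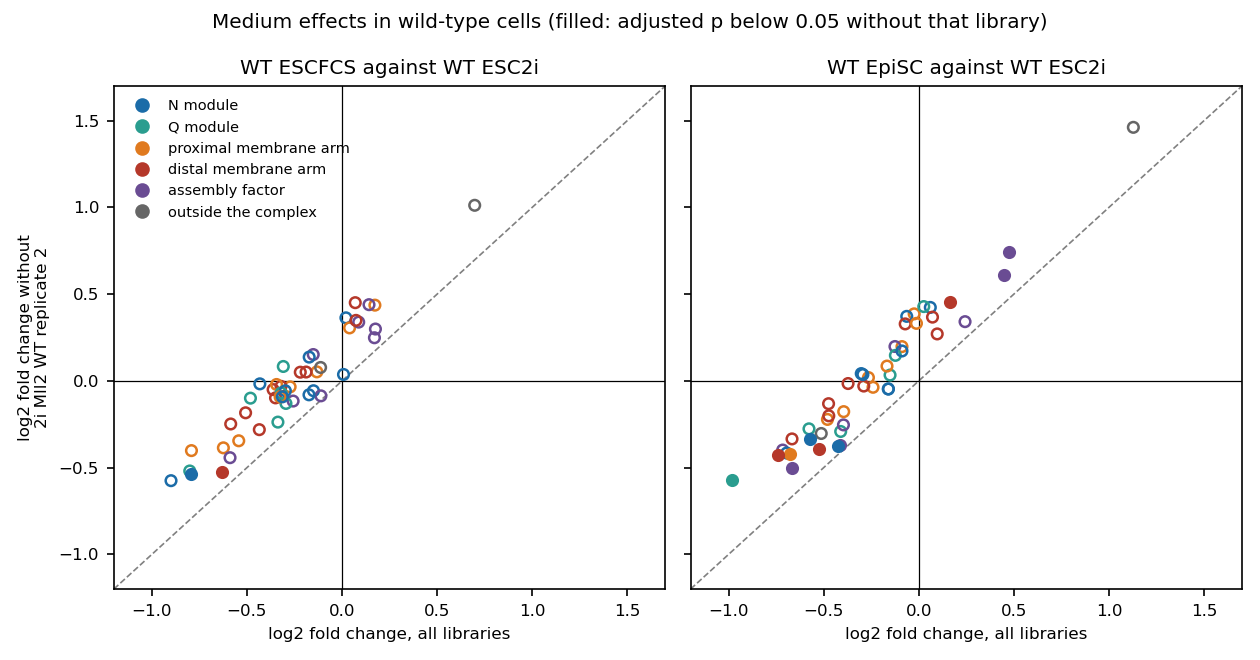
Log2 fold change of the 46 Nduf genes between WT cells in FCS or EpiSC and in 2i, with all libraries (horizontal axis) and without 2i Mll2 WT replicate 2 (vertical axis). Points are coloured by role and filled where the adjusted p without that library is below 0.05, and all members lie above the dashed line of equal values.

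EpiSC and FCS cells, whose comparison does not use that library, differed in 3 members lower and 3 higher in EpiSC, against 20.6% and 20.4% of all genes. Ndufs1, the large iron-sulphur subunit of the N module, was at 100 to 138 CPM in EpiSC and 131 to 217 in FCS (-0.43, edgeR adjusted p = 0.00564). Ndufaf2 was at 8.48 to 15.2 and 15.3 to 24.6 CPM, without overlap (-0.86, edgeR adjusted p = 0.00170), and Ndufa5 at -0.68 (edgeR adjusted p = 0.0440). Ndufaf3 (0.71, edgeR adjusted p = 0.0153), Ndufa13 (0.77, adjusted p = 0.0211) and Ndufb11 (0.53, adjusted p = 0.0486) were higher in EpiSC. Ndufa5 lost its call in 11 of the 13 fits without 1 library, Ndufb11 in 10 and Ndufa13 in 5. Without EpiSC Setd1a WT replicate 2 only 2 calls were left (34.5% of all genes), and Ndufb11 was at 0.26 (edgeR adjusted p = 0.336), Ndufa13 at 0.56 (adjusted p = 0.104) and Ndufaf3 at 0.49 (adjusted p = 0.0955). There were 3 calls without EpiSC Bod1L WT replicate 1 (34.6%), EpiSC Mll2 WT replicate 1 (34.1%) or FCS Setd1a WT replicate 1 (34.2%). Fitting without 2i Mll2 WT replicate 2, which also enters the estimate of the spread, gave 10 calls (40.9%), and the length offset gave 6 lower and 8 higher (41.5%).

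The 3 WT lines differed in 2 members, Ndufs5 (edgeR adjusted p = 0.00146) and Ndufaf1 (edgeR adjusted p = 0.0391), against 14.7% of all genes. Ndufs5, a proximal-arm subunit, was at 12.1 to 20.0 CPM in Bod1L WT libraries, 23.1 to 36.7 in Setd1a WT and 22.0 to 59.7 in Mll2 WT. The Bod1L libraries did not overlap with the others. Ndufaf1 lost its call in 11 of 18 fits without 1 library, and Ndufs5 in 0. The count was 8 without 2i Mll2 WT replicate 1 (16.5% of all genes) and 1 in each of the 11 fits without Ndufaf1. The length offset called Ndufs5 and Ndufaf8, against 15.7% of all genes.

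Other genes of the respiratory chain come from lists chosen with earlier results of these data known. They are given for the Setd1a contrast, in which 5.57% of all genes were lower and 3.29% higher, or 11.7% lower with the block. Of 10 assembly factors with other names, 4 fell: Timmdc1 (-1.93, edgeR adjusted p = 6.71e-08), a factor of the membrane arm, at 5.46 to 10.3 CPM in KO and 21.1 to 50.6 in WT, Foxred1 (-1.25, adjusted p = 1.06e-07) at 11.9 to 20.7 and 35.1 to 49.9, the iron-sulphur protein Nubpl (-1.18, adjusted p = 0.00172) and Tmem186 (-0.72, adjusted p = 0.0141). The list's median was -0.67, and 8 fell with the block. Of the 7 mitochondrially encoded subunits 5 rose: mt-Nd1 (1.30 on the log2 scale), mt-Nd2 (1.34), mt-Nd3 (1.42), mt-Nd4 (0.77) and mt-Nd5 (0.81). Mitochondrial genes took 3.89% to 7.71% of counts in Setd1a KO libraries and 1.98% to 5.09% in WT.

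Of complex II, 2 of 8 genes fell (the assembly factor Sdhaf4 and the subunit Sdhc), and 5 with the block. This list holds the assembly factors Sdhaf1 to Sdhaf4 beside the subunits, whereas the lists of complexes III, IV and V hold subunits alone. Complex III had 0 of 9 called (median -0.11, 1 with an unadjusted p under 0.05 and 1 with the block), complex IV 0 of 11 (median 0.17, 1 with an unadjusted p under 0.05 and 0 with the block), and complex V 1 higher and 1 lower of 15 (median -0.18). Among 9 regulators of respiratory genes Tfam, which packages mitochondrial DNA, fell (-0.56, edgeR adjusted p = 0.00430), and Nrf1, Gabpa and Yy1 were at -0.08, -0.34 and 0.09, none past the test. Bod1L KO cells, with 1.92% of all genes lower and 0.102% higher, had 3 of the 10 other assembly factors lower (Foxred1, Timmdc1 and Nubpl) and 2 of 7 mitochondrial subunits higher (mt-Nd2 and mt-Nd3).

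Of 6 genes facing the members described above as lower in Setd1a KO cells, 1 passed the test. Mrpl36, which faces Ndufs6, fell (-1.28, edgeR adjusted p = 1.22e-04). Wdr4 (-0.33, adjusted p = 0.218), Tatdn1 (-0.01), Fam126b (0.51, adjusted p = 0.0920), Tepsin (-0.08) and Kbtbd4 (0.16) did not pass the test. Phf14, which faces the uncalled Ndufa4, fell (-0.70, adjusted p = 3.62e-04).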

How the data were processed

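The authors deposited counts of single-end reads per gene, made with featureCounts 1.5.2 (reverse-stranded, primary alignments, mapping quality of at least 1, Ensembl 87) per the file headers. GSNAP and GRCm38 are named in the submitters' processing notes. Per the labels' protocols, Trizol RNA was poly(A) selected and random-primed cDNA went into strand-specific ScriptSeq libraries. Trimming is not given in the sources used here.

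Symbols came from GENCODE M21, spike-ins (92 lines, all at 0) were dropped, and CPM and RPKM were computed from the counts with TMM size factors. Counts were fitted with edgeR 4.0.16 (R 4.3.3) by quasi-likelihood F tests with TMM scaling. The 23501 genes that passed filterByExpr (minimum count 10) entered a single fit of the 18 groups, which left 18 residual degrees of freedom, and Benjamini-Hochberg adjusted p-values below 0.05 were called. The standard error is the log2 fold change divided by the root of F. The labels state no pairing, but the deviations of same-numbered KO and WT libraries correlated (Pearson r of 0.344 to 0.871 over genes of at least 5 CPM), so a fit with the replicate number as a block is printed where it changes a call. For knockout effects the block paired KO and WT of the same number and left 9 residual degrees of freedom. For comparisons among WT groups it was instead a replicate term for each line, shared over media, which left 15. Alternatives were DESeq2 1.42.0, other size factors, no filter, only the compared groups, leaving out each library, and, added after seeing the data, a length offset. Copies were sought with blastn 2.17.0. The fit was also run on simulated counts with planted log2 changes of 1 and 2, and it recovered 100% of the 100 genes at each size. Those counts had the same spread for every gene, and no medium differences, pairing or length shift. The recovery therefore does not carry over to these libraries.

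Named were every member called in a knockout comparison, the 10 called members of largest change per medium comparison, the extremes of each knockout average, the 5 highest and 5 lowest members by RPKM and every Ndufaf factor; other members named were chosen after their values were seen. The values of 1 member are not reported here, although it enters the fits, counts and medians. Members and lists were chosen with earlier results of these data known.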

Additional observations from a re-analysis of the deposited data

Results flagged for a closer look

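The effect of knockout on Ndufv3, an accessory subunit of the N module, differed between the Mll2 and the Setd1a line by 0.93 (log2, mean of 3 media) in a test of the difference itself (edgeR adjusted p = 0.00890). Ndufv3 was the only member called in it, against 2.00% of all genes called higher, so the members' share was near that of all genes. Its log2 fold change was -0.87 on loss of Setd1a and 0.05 in Mll2 KO cells. The difference kept its call in all 24 fits that left out 1 library, with values of 0.82 to 1.03 and adjusted p-values of 0.00346 to 0.0251.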

How the results depend on the processing

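The replicate block gave 20 called members (against 10 in the fit without it) for the Setd1a mean of 3 media, 13 against 2 in EpiSC, 6 against 0 in 2i, 3 against 0 for the Bod1L mean and 6 against 1 for the Mll2 against Setd1a effect. Ndufc1 in FCS against 2i was the only named member that lost its call under the block. The length offset gave 2 calls for the Bod1L mean, 2 for Mll2 against Setd1a, 20 for EpiSC against 2i and 14 for EpiSC against FCS. Length offset and block together gave 22 for the Setd1a mean (16 lower and 6 higher, with 29.2% of all genes called), 10, 7 and 12 for Setd1a in 2i, FCS and EpiSC, 8 for the Bod1L mean and 1 in each Bod1L medium, 1 for Mll2 in EpiSC, 10 for Mll2 against Setd1a and 14 for EpiSC against FCS. DESeq2 gave 1 for the Bod1L mean, 6 for Setd1a in EpiSC and 10 for EpiSC against FCS. Without the filter on low counts 5 members were called for Setd1a in EpiSC and 1 between lines. A fit of only the compared groups gave 26 for Setd1a in 2i, where it called 37.8% of all genes, 0 for Setd1a in EpiSC and 1 between lines. The share of all genes called moved between fits as well. For the Setd1a mean it was 9.63% with the length offset and 29.2% with the block added. Where no share is given, a changed count, here or below, is no result about the members. The cause of these changes was not tested.

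Leaving out 1 library at a time gave 6 to 16 calls for the Setd1a mean, 0 to 1 in 2i, 0 to 5 in EpiSC, 0 to 2 for the Bod1L mean, 0 to 15 for Mll2 in 2i, 1 to 5 for Mll2 against Setd1a, 2 to 19 for FCS against 2i, 10 to 20 for EpiSC against 2i, 2 to 10 for EpiSC against FCS and 1 to 8 between lines. In the Setd1a mean Ndufv3, Ndufv1, Ndufb9, Ndufb3, Ndufaf8 and Ndufc1 kept their calls in all 13 such fits, and Ndufa10 lost it in 10, Ndufs6 in 6 and Ndufs3 in 3. In a group left with 1 library, that library is assumed to vary like the other groups. No named member with a call changed direction under any alternative. Named members that were not called did so in the Setd1a mean. With the length offset Ndufaf1 was at 0.0120, Ndufaf2 at 0.257, Ndufaf5 at 0.0309 and Ndufaf7 at 0.0149, and with the block added they were at 0.0493, 0.253, 0.0240 and 0.0167. Ndufaf2 was at 0.0287 with DESeq2 and 0.0286 with RLE size factors. Leaving out 1 library gave -0.0492 to 0.0330 for Ndufaf2, -0.104 to 0.160 for Ndufaf4 and -0.0693 to 0.685 for Ndufb6, which was below 0 without FCS KO replicate 1.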
